A study of Mus musculus with 6 samples.

Results

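The IKK kinases and the adaptor proteins that act just above them were followed as 10 genes in splenic monocytes of mice given water or vancomycin. The genes are *Ikbkb*, *Chuk*, *Ikbkg*, *Tbk1*, *Ikbke*, *Tank*, *Map3k7*, *Tab2*, *Tifa* and *Traf3ip2*. They were chosen by gene symbol, and all 10 were found among the 46072 gene identifiers of the series, on 1 identifier each. The Con group (n = 3 libraries) was gavaged with water and the Van group (n = 3 libraries) with 2 mg of vancomycin per day, in each case for 6 days. All mice were female C57BL/6 mice aged 8 to 10 weeks, and they rested without gavage, for 6 to 8 days per the labels, while 8 days are stated elsewhere. Monocytes were taken from the spleen by magnetic negative selection and were not stimulated in culture before their messenger RNA was sequenced, with 1 library per replicate. For RNA, monocytes were taken from 3 mice of each group, which are described as biological replicates.

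NF-κB is a family of transcription factors that monocytes use to switch on cytokine genes after a microbial signal. In resting cells it is held in the cytoplasm by IκB proteins. Toll-like receptors and other sensors work through ubiquitin-building adaptors that recruit the kinase TAK1 (*Map3k7*) with its ubiquitin-binding partner TAB2 (*Tab2*), and TAK1 switches on the IKK complex, made of the kinases IKKβ (*Ikbkb*) and IKKα (*Chuk*) and the scaffold NEMO (*Ikbkg*). IKKβ then marks IκB for destruction. The related kinases TBK1 (*Tbk1*) and IKKε (*Ikbke*), held by scaffolds such as TANK (*Tank*), act mainly on interferon regulatory factors. TIFA (*Tifa*) links the sensor of bacterial heptose sugars to TRAF6, and Act1 (*Traf3ip2*) links the receptor for interleukin-17 to the same machinery.

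Promoter sequences were taken from RefSeq on GRCm38.p6, as windows of 300 bases that run from 250 bases before each annotated start to 50 bases after it. Of the 10 genes, 8 had an entry in the set of promoters used here, and *Ikbkb* and *Traf3ip2* did not. The NF-κB consensus motif, of 10 bases and searched on both strands, was found at 4 distinct sites, 1 each in *Tifa* and *Map3k7* and 2 in *Tank*. The windows of a gene can overlap, and both *Tank* sites lie in 2 windows each. These are 3 of the 8 genes, while 9.55% of all 27025 genes with an entry and 8.46% of all 32851 windows held the motif. The 8 genes had 16 windows, of which 6 held the motif. They had more windows per gene than genes in general, so the shares of genes are not like for like. For each of the 3 genes 1 window is shown because it holds the motif of the factor that these proteins activate. The other *Tank* site, GGAAGTCCCC, lies 10 or 39 bases before other annotated starts of that gene. A match is a match of letters only and does not show binding. In the sequences below, given 5′ to 3′ on the plus strand, capitals mark the NF-κB consensus. It lies 92 bases before the start in *Map3k7* (chr4:31963857-31964156), 72 bases before it in *Tank* (chr2:61592847-61593146) and 33 bases after it in *Tifa* (chr3:127790407-127790706).
Map3k7: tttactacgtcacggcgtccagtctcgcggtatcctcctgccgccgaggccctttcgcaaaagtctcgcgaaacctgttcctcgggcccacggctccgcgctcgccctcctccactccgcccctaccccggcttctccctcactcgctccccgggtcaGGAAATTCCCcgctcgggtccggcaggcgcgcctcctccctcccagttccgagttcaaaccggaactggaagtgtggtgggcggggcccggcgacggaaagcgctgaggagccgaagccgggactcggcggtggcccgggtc
Tank: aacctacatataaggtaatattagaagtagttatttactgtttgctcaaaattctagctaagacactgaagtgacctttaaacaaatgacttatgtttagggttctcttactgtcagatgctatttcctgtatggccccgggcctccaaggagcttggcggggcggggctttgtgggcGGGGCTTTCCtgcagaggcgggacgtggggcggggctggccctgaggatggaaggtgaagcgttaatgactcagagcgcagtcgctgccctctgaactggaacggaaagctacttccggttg
Tifa: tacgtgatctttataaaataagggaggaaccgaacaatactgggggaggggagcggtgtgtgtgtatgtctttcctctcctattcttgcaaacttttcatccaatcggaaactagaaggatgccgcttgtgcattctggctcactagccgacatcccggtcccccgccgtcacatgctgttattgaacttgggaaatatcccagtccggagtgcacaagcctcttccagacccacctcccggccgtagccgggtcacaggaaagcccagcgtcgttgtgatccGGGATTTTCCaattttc

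The libraries held between 43383919 and 61834407 estimated counts. All 10 markers of monocytes were detected in every library, with a summed FPKM (fragments per kilobase of transcript, scaled to sequencing depth) of 10700 to 11300 in Con and 9620 to 11000 in Van. Of these 10 markers, 7 were lower and 3 higher in Van (median log2 fold change, the log2 of the ratio of Van to Con, -0.15). The 2 called by edgeR were *Ccr2*, the receptor for recruitment of classical monocytes, and *Fcgr1*, both lower, with log2 fold changes of -0.83 and -0.32. Of the markers not called, *Ly6c2* was at -0.34 (adjusted p = 0.24 from edgeR), with overlapping groups. *Csf1r*, the receptor for macrophage colony-stimulating factor, was at 0.08. Markers of lymphocytes were at low levels and mostly lower in Van. Those of B cells summed to 10.3 to 12.5 FPKM in Con and 8.63 to 10.5 in Van, with 6 of 6 lower (median -0.51). T cell markers summed to 14.8 to 20.2 and 11.1 to 15.6, with 6 of 7 lower (median -0.42), and NK cell markers to 4.11 to 6.52 and 3.48 to 4.86, with 3 of the 4 tested lower (median -0.63). None of the B, T and NK cell markers was called by edgeR, and the ranges of the sums overlapped. Dendritic cell markers summed to 107 to 122 FPKM in Con and 95.1 to 115 in Van, with 6 of 7 lower (median -0.19) and 1 called lower. The sums for neutrophils lay within 13.6 to 33.5 in Van, a range that includes all Con values, with 4 of the 5 tested lower. Plasma cell markers summed to 175 to 188 in Con and 169 to 186 in Van, with 4 of 5 lower. The neutrophil marker *Ly6g* was listed at 0 in all 6 libraries, while *Prf1*, *Gzma*, *Ncr1* and *Camp* were at 0 in some. In 2 lists the sums of the groups did not overlap. The summed erythroid markers were 99.9 to 203 FPKM in Con and 343 to 773 in Van, with all 8 higher in Van and 5 of them called, and those of red pulp macrophages were 325 to 387 in Con and 419 to 508 in Van, with 5 of 6 higher and 0 called. *Klf1* of the erythroid list was at 0 in at least 1 library. Mitochondrial genes took 2.56% to 2.81% of counts in Con and 1.98% to 2.32% in Van. The part of these shifts in the values of the 10 genes was not tested. In such bulk libraries, fewer cells that express a gene and less RNA of it per cell cannot be told apart.

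In Van compared to Con, 9 of the 10 genes were lower, and *Ikbkb* was the gene that was higher. Over all 16138 identifiers tested, 50.4% had a log2 fold change below 0. The median log2 fold change was -0.13 for the 10 genes and -0.001 for all identifiers. The differences were small, and the median absolute log2 fold change was 0.13 for the 10 genes against 0.15 for all identifiers. With edgeR's quasi-likelihood test and Benjamini-Hochberg adjustment over all identifiers, 0 of the 10 genes reached an adjusted p of 0.05 or less, where 2.00% of all identifiers did. An unadjusted p under 0.05 from the same edgeR test, with the gene lower in Van, was found for 5 of the 10 genes (*Tifa*, *Ikbkg*, *Traf3ip2*, *Ikbke* and *Map3k7*) and for 8.14% of all identifiers. The CPM values (counts scaled to library size, with TMM factors) of the 3 Van libraries all lay below those of the 3 Con libraries for 4 of the 10 genes (*Tifa*, *Ikbkg*, *Traf3ip2* and *Map3k7*), as they did for 11.0% of all identifiers.

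With DESeq2's Wald test, which the study's methods name, *Tifa* (adjusted p = 0.0134) and *Ikbkg* (adjusted p = 0.0385) were called lower, 2 of the 10 genes, and 3.60% of the identifiers with an adjusted p were called lower. When DESeq2 was run after removal of low-count genes, an alternative added after the data were seen, *Traf3ip2* (DESeq2, adjusted p = 0.0406) passed as well, which made 3 of 10, and the share of identifiers called lower was 3.85%. The call on these 3 genes depended on the test, and their direction was the same in all fits run. With limma on FPKM, 0 of the 10 genes were called, but it called few identifiers of any kind, 0.400% with a pseudocount of 1, 0.315% with 0.1 and 0.0992% without a filter on low values. An unadjusted p under 0.05 from limma (pseudocount 1) was found for 3 of the 10 genes and for 17.3% of all identifiers.

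**Figure D1:**
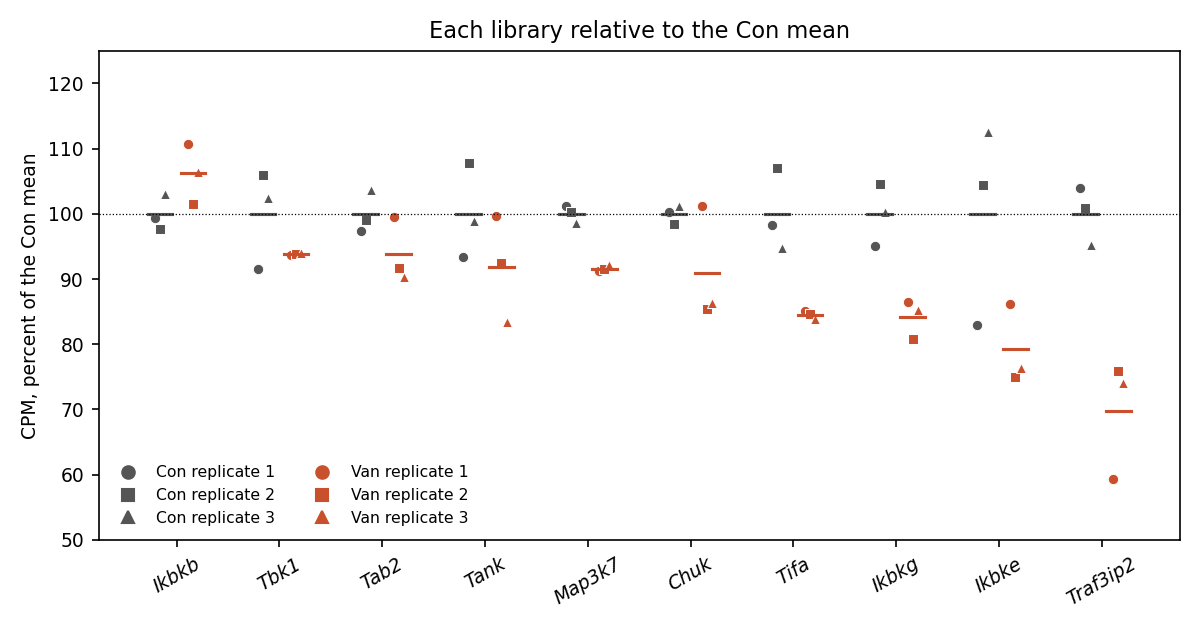
CPM of each library as a percent of the mean of the 3 Con libraries (vertical axis, shown from 50), with symbols for single libraries and bars for group means (n = 3 libraries each). Genes are ordered by log2 fold change. *Ikbkb* is the gene with a Van mean above the Con mean, and for *Map3k7*, *Tifa*, *Ikbkg* and *Traf3ip2* all Van libraries lie below all Con libraries.

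**Figure D2:**
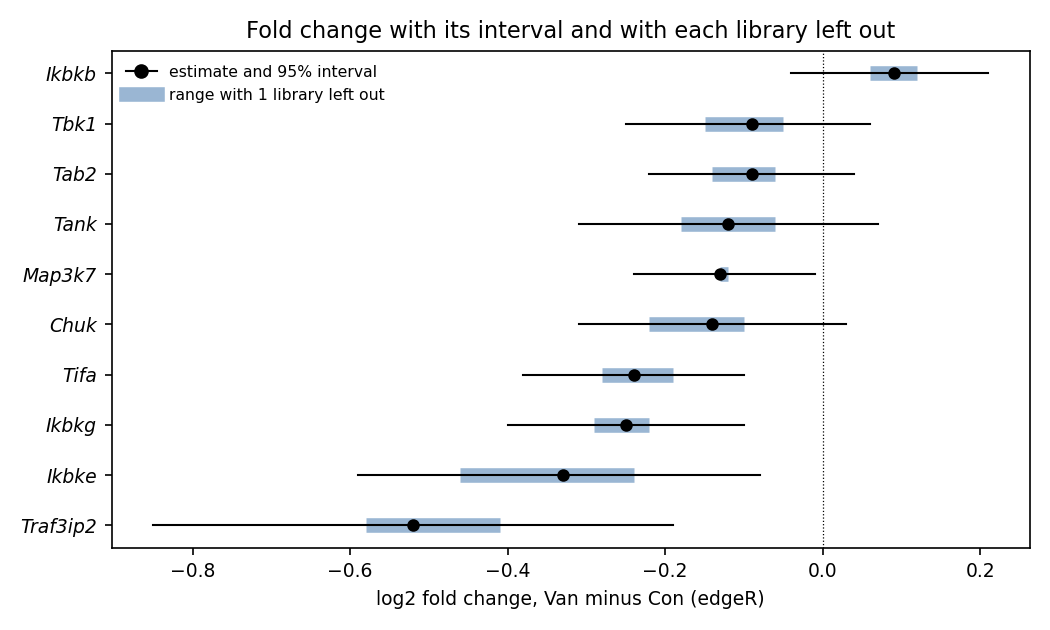
The log2 fold change of each gene, Van minus Con, from edgeR (points) with its 95% interval (lines) and the range of estimates when 1 of the 6 libraries was left out (blue bars). No gene changed sign when a library was left out, and the interval lies below 0 for *Map3k7*, *Tifa*, *Ikbkg*, *Ikbke* and *Traf3ip2*.

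Per length of transcript, the 10 genes covered a wide range of levels in these monocytes. The mean over all 6 libraries was 119 FPKM for *Ikbkb*, at percentile 97.9 of the identifiers with an FPKM above 0, and 2.26 FPKM for *Traf3ip2*, at percentile 59.3. Between them stood *Tab2* (87.2 FPKM), *Tifa* (35.1), *Tank* (32.0), *Chuk* (31.7), *Tbk1* (19.1), *Ikbke* (15.4), *Map3k7* (14.4) and *Ikbkg* (7.30). The order was the same in 6 of 6 libraries, with no overlap of their ranges, for *Ikbkb* above *Tab2*, *Tab2* above *Tifa*, *Chuk* above *Tbk1*, *Map3k7* above *Ikbkg* and *Ikbkg* above *Traf3ip2*. *Tank* and *Chuk* did not differ beyond their spread, with *Tank* higher in 2 of 6 libraries, and neither did *Ikbke* and *Map3k7*, with *Ikbke* higher in 3 of 6. *Tifa* was above *Tank* in 5 of 6 libraries and *Tbk1* above *Ikbke* in 6 of 6, although the ranges of both pairs overlapped.

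**Figure D3:**
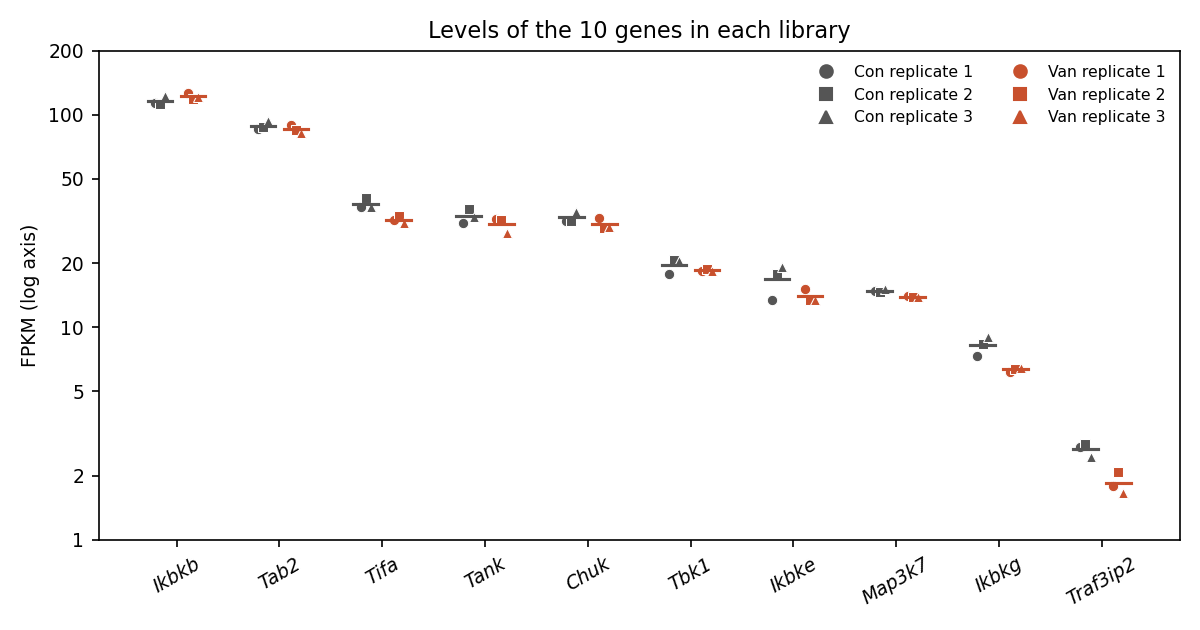
FPKM of the 10 genes (log axis), with symbols for single libraries and bars for group means (n = 3 libraries each), ordered by the mean over all 6 libraries. *Ikbkb* lies between 112 and 126 FPKM and *Traf3ip2* between 1.67 and 2.83 FPKM.

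Within the classical IKK complex, the kinase that phosphorylates IκB was slightly higher in Van and the scaffold was lower. *Ikbkb* (chromosome 8 of GRCm38, 22659212 to 22706589) had CPM values of 463, 455 and 480 in the Con libraries, given in the order of replicates 1 to 3 here and for each gene that follows, and of 516, 473 and 496 in the Van libraries. The groups overlapped, since Van replicate 2 lay below Con replicate 3. The log2 fold change was 0.09 (standard error 0.05, 95% interval -0.04 to 0.21, adjusted p = 0.49 from edgeR), so that the interval ends at 15.9% above Con. *Ikbkg*, which encodes the subunit that binds ubiquitin chains (chromosome X, 74393290 to 74453854), measured 41.9, 46.1 and 44.2 CPM across the Con libraries against 38.1, 35.6 and 37.6 across the Van libraries. All Van values were below all Con values. The mean went from 44.0 ± 2.07 to 37.1 ± 1.32 CPM (SD, n = 3 libraries each), which is lower by 15.8% (log2 fold change -0.25, standard error 0.07, 95% interval -0.40 to -0.10, adjusted p = 0.101 from edgeR). In FPKM the same gene went from 8.25 ± 0.844 to 6.35 ± 0.142, and with limma its log2 fold change was -0.35 on log2(FPKM + 1) values and -0.39 on log2(FPKM + 0.1) values.

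The exons of *Ikbkg* share 418 bases, 5.15% of its exonic sequence, with *G6pdx* on the opposite strand. *G6pdx*, which encodes the entry enzyme of the pentose phosphate pathway, averaged 310 ± 3.64 CPM for Con against 322 ± 19.3 for Van (log2 fold change 0.06, adjusted p = 0.701 from edgeR). How far reads of *G6pdx* entered the count of *Ikbkg* was not tested. *Chuk*, the kinase of the non-canonical pathway (chromosome 19, 44073335 to 44107480), measured 109, 107 and 110 CPM across the Con libraries against 110, 92.8 and 93.8 across the Van libraries. Van replicate 1 stood with the Con libraries, apart from the other 2 Van libraries. The log2 fold change of *Chuk* was -0.14 (standard error 0.07, adjusted p = 0.396 from edgeR) and became -0.22 without Van replicate 1 (adjusted p = 0.135 from edgeR).

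*Ikbkb* and *Chuk* are paralogs, and so are *Tbk1* and *Ikbke*, so that reads could in principle be assigned to the wrong gene of a pair. Over their longest annotated coding sequences, *Ikbkb* and *Chuk* were identical at 61.4% of 2196 aligned bases and *Tbk1* and *Ikbke* at 60.7% of 2119. The longest stretch that each pair shares is shown here, in lower case and 5′ to 3′, since it is the longest run over which a read can match both coding sequences exactly. It has 16 bases at coding position 181 of both *Ikbkb* and *Chuk*, and 14 bases at coding position 49 of both *Tbk1* and *Ikbke*. The stated read length is 100 bases, and how often reads were assigned to the wrong paralog was not tested.
Ikbkb and Chuk: gaaatccagatcatga
Tbk1 and Ikbke: cagggggccactgc

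Ratios between partner genes within a library do not depend on the scaling of libraries, but they do depend on the unit, and 7 pairs were compared in FPKM. The FPKM of *Ikbkb* was 3.59, 3.52 and 3.48 times that of *Chuk* in the Con libraries and 3.83, 4.05 and 4.08 times in the Van libraries. The ratio of *Ikbkb* to *Ikbkg* was 15.5, 13.3 and 13.5 in Con and 20.3, 18.6 and 18.8 in Van. For *Chuk* to *Ikbkg* it was 4.33, 3.79 and 3.89 in Con and 5.30, 4.59 and 4.59 in Van. In each of these 3 pairs the groups did not overlap, with log2 differences of 0.18, 0.45 and 0.27, and the exact two-sided permutation test gave p = 0.1, the smallest value that 3 libraries against 3 allow (0.233 after Benjamini-Hochberg adjustment over the 7 pairs). The 3 ratios share genes and are not independent of each other. In CPM, an alternative added after the data were seen, the log2 differences were 0.23, 0.34 and 0.10. There the groups remained apart for *Ikbkb* to *Chuk* and *Ikbkb* to *Ikbkg*, but for *Chuk* to *Ikbkg* they overlapped, at 2.60, 2.33 and 2.48 in Con and 2.88, 2.61 and 2.50 in Van (exact permutation p = 0.2). The other 4 ratios overlapped between the groups in both units. *Tbk1* to *Ikbke* averaged 1.18 in Con and 1.33 in Van, and *Tab2* to *Map3k7* 5.98 and 6.14, with log2 differences of 0.18 and 0.04 (exact permutation p = 0.2 and 0.5, adjusted 0.35 and 0.583). With 1 library left out, these differences ranged from 0.11 (without Con replicate 3) to 0.26 and from 0.01 (without Con replicate 1 or Van replicate 1) to 0.07. For *Ikbke* to *Tank* the difference was -0.14, with a range of -0.24 to -0.03 (without Con replicate 3).

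**Figure D4:**
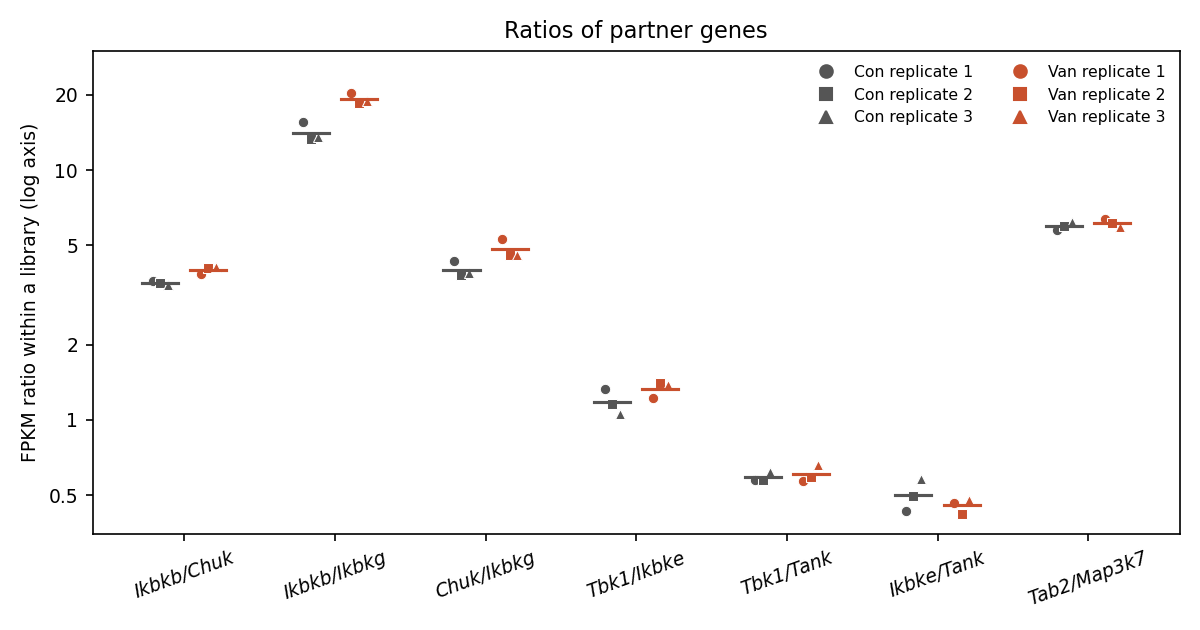
Ratio of the FPKM of 2 genes within each library (log axis) for 7 pairs of partner genes, with symbols for single libraries and bars for geometric means (n = 3 libraries each). The 3 ratios among *Ikbkb*, *Chuk* and *Ikbkg* are higher in every Van library than in every Con library, and the other 4 overlap.

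Of the TBK1 and IKKε branch, the inducible kinase *Ikbke* had the largest difference. *Ikbke* (chromosome 1, 131254343 to 131279606) measured 46.6, 58.6 and 63.2 CPM across the Con libraries against 48.4, 42.1 and 42.9 across the Van libraries. Con replicate 1 lay within the Van values, so that the groups overlapped, and the Con libraries had the widest relative spread of the 10 genes (coefficient of variation 15.3%). The mean was lower by 20.7% in Van (log2 fold change -0.33, standard error 0.11, 95% interval -0.59 to -0.08, adjusted p = 0.191 from edgeR). Without Con replicate 1 the log2 fold change was -0.46 (adjusted p = 0.0663 from edgeR), and without Con replicate 3 it was -0.24. Its exons share 159 and 65 bases with the antisense genes *Gm28914* and *Gm28913*, which were at no more than 1.13 CPM in any library. *Tbk1*, the constitutive kinase (chromosome 10, 121546455 to 121586787), measured 65.3, 75.6 and 73.1 CPM across the Con libraries against 66.8, 66.9 and 67.0 across the Van libraries. The Van libraries were nearly equal and lay within the range of the Con libraries (log2 fold change -0.09, or -0.15 without Con replicate 1 and -0.05 without Con replicate 2, 95% interval -0.25 to 0.06, adjusted p = 0.568 from edgeR). *Tank*, which scaffolds both kinases (chromosome 2, 61578585 to 61654171), measured 83.3, 96.2 and 88.2 CPM across the Con libraries against 89.0, 82.5 and 74.5 across the Van libraries, with overlapping groups (log2 fold change -0.12, or -0.18 without Van replicate 1 and -0.06 without Con replicate 2 or Van replicate 3, 95% interval -0.31 to 0.07, adjusted p = 0.531 from edgeR).

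The kinase that activates the IKK complex was lower in every Van library, by little. *Map3k7* (chromosome 4, 31964097 to 32023467) measured 97.2, 96.3 and 94.8 CPM across the Con libraries against 87.7, 87.9 and 88.5 across the Van libraries. The values within each group were close, with coefficients of variation of 1.28% in Con and 0.486% in Van. The mean was lower by 8.4% (log2 fold change -0.13, standard error 0.05, 95% interval -0.24 to -0.01, adjusted p = 0.268 from edgeR). *Map3k7* transcripts match the gene *Gm8188* over 1708 bases at 95.1% identity, so that reads could have been split between them. *Tab2*, its adaptor for ubiquitin chains (chromosome 10, 7905653 to 7956230), measured 431, 439 and 459 CPM across the Con libraries against 441, 406 and 400 across the Van libraries. The groups overlapped through Van replicate 1 (log2 fold change -0.09, or -0.14 without Van replicate 1 and -0.06 without Con replicate 3, 95% interval -0.22 to 0.04, adjusted p = 0.496 from edgeR).

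The receptor-side adaptors *Tifa* and *Traf3ip2* were both lower in each Van library than in each Con library. *Tifa* (chromosome 3, 127789805 to 127832164) measured 100.0, 109 and 96.4 CPM across the Con libraries against 86.6, 86.2 and 85.4 across the Van libraries. The mean went from 102 ± 6.30 to 86.1 ± 0.609 CPM (SD, n = 3 libraries each), which is lower by 15.5% (log2 fold change -0.24, standard error 0.06, 95% interval -0.38 to -0.10). Its adjusted p of 0.0913 from edgeR was the smallest of the 10 genes. Its exons share 105 bases with *Gm43654* on the opposite strand. *Traf3ip2* (chromosome 10, 39612934 to 39655307) measured 6.31, 6.12 and 5.78 CPM across the Con libraries against 3.60, 4.61 and 4.50 across the Van libraries. This was the largest difference, lower by 30.3%, in the gene with the lowest level (log2 fold change -0.52, standard error 0.15, 95% interval -0.85 to -0.19, adjusted p = 0.117 from edgeR), with 220 to 367 estimated counts per library. Exact permutation of the library labels, two-sided and on CPM, gave p = 0.1, the smallest possible, for *Tifa*, *Traf3ip2*, *Ikbkg* and *Map3k7*, and 0.2 to 0.4 for the other 6 genes.

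*Traf3ip2* shares 293 exonic bases, 7.95% of its exonic sequence, with the antisense gene *E130307A14Rik* on the opposite strand. That gene measured 7.77, 7.22 and 9.04 CPM across the Con libraries against 5.13, 5.08 and 5.57 across the Van libraries, with all Van values below all Con values (log2 fold change -0.61, adjusted p = 0.0573 from edgeR). It was named after its values were seen. The library kit kept the strand, but the use of the strand in counting is not given in the sources used here, and how far reads of either gene entered the count of the other was not tested.

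Other genes of the pathway were taken from 7 lists, of which 108 of 109 genes were tested. With edgeR, 3 of the 108 passed an adjusted p of 0.05, all of them lower in Van, against the 2.00% of all identifiers called in either direction. All 3 were interferon-induced genes. With DESeq2, 14 of the 105 related genes with an adjusted p were called, against 7.34% of all identifiers. For the counts at an unadjusted p under 0.05 in the lists that follow, the shares over all identifiers in edgeR were 8.37% higher and 8.14% lower. The lists of complex partners, upstream adaptors, brakes and kinase substrates had median log2 fold changes between -0.02 and 0.02.

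Among 8 complex partners and parallel kinases, 4 were higher and 4 lower (median log2 fold change 0.00), and 0 passed edgeR's adjusted test, with 2 higher and 2 lower at an unadjusted p under 0.05. *Tbkbp1*, the scaffold also called SINTBAD and the gene of this list with the smallest p, had a mean of 85.4 ± 6.15 CPM for Con and 106 ± 2.71 for Van (log2 fold change 0.31, standard error 0.07, adjusted p = 0.0579 from edgeR and 0.00149 from DESeq2). *Azi2*, the scaffold NAP1, averaged 97.1 ± 5.91 and 85.6 ± 3.72 CPM, respectively (log2 fold change -0.18, adjusted p = 0.221 from edgeR), and *Tank* had the small difference given above. The groups did not overlap for *Tbkbp1* and *Azi2*, and the difference between the scaffolds was not tested. *Azi2* and *Tank* were described together with *Tbkbp1* after their values were seen.

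The 29 upstream adaptors and ubiquitin ligases had a median of 0.02, with 16 higher and 13 lower, and 0 called by edgeR (2 higher and 2 lower at an unadjusted p under 0.05). The gene with the smallest p was *Mavs*, the mitochondrial adaptor of RNA sensors, averaging 36.3 ± 6.74 CPM for Con against 51.8 ± 4.69 for Van (log2 fold change 0.51, adjusted p = 0.0903 from edgeR and 0.0045 from DESeq2). DESeq2 called 2 genes of this list in opposite directions, the other being *Nod2*, a sensor of bacterial cell wall fragments, which averaged 69.4 ± 11.8 CPM for Con against 52.3 ± 4.75 for Van (log2 fold change -0.41, adjusted p = 0.0199 from DESeq2 and 0.136 from edgeR). *Nod2* was named after its values were seen. Of 19 brakes on IKK signaling, 12 were lower (median -0.02), and 0 were called by edgeR, with 2 lower and 0 higher at an unadjusted p under 0.05. *Cyld*, a deubiquitinase that removes the chains NEMO binds, had the smallest p and averaged 130 ± 4.17 CPM for Con and 111 ± 3.17 for Van (log2 fold change -0.24, adjusted p = 0.0715 from edgeR and 0.00626 from DESeq2). The 11 substrates, the IκB and NF-κB proteins and interferon regulatory factors, had a median of -0.00, with 0 called by edgeR and 1, *Irf7*, at an unadjusted p under 0.05 (log2 fold change -0.19, adjusted p = 0.136 from edgeR and 0.0412 from DESeq2). The substrate with the largest difference, chosen after its values were seen, was *Rel*, which encodes the NF-κB subunit c-Rel. *Rel* was at 842, 688 and 782 CPM in the Con libraries and at 785, 518 and 424 CPM in the Van libraries, where Van replicate 1 stood with Con (log2 fold change -0.42, adjusted p = 0.334 from edgeR and 0.475 from DESeq2). Without Van replicate 1 the log2 fold change of *Rel* was -0.71 (adjusted p = 0.0435 from edgeR). With 1 library left out the adjusted p from edgeR ranged from this value to 0.612.

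*Traf3ip2* works at the receptor for interleukin-17. Of the 5 receptor chains, *Il17ra*, the shared chain, averaged 793 ± 46.7 CPM for Con against 817 ± 48.1 for Van (log2 fold change 0.04, adjusted p = 0.813 from edgeR). The other chains were low. *Il17rd*, with the smallest p, averaged 2.50 ± 0.616 CPM for Con against 3.90 ± 0.777 for Van (log2 fold change 0.65, adjusted p = 0.221 from edgeR). The median of -0.42 over this list rests on such low genes. With edgeR 0 of the 5 were called, with 1 higher and 1 lower at an unadjusted p under 0.05.

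Of 25 genes that NF-κB induces, 14 were lower and 11 higher (median -0.02), and 0 were called by edgeR, with 4 lower and 3 higher at an unadjusted p under 0.05. *Il1a*, which encodes the cytokine interleukin-1α, had the smallest p and averaged 9.51 ± 0.960 CPM for Con against 6.02 ± 0.749 for Van (log2 fold change -0.66, adjusted p = 0.0508 from edgeR and 0.00317 from DESeq2). DESeq2 called 4 genes of this list, named here after their values were seen, in both directions. Besides *Il1a*, *Cd40* (log2 fold change -0.58) and *Plau* (-0.75) were lower, and *Vcam1*, which encodes an adhesion molecule and is also in the list of red pulp macrophage markers, was higher (0.46, adjusted p = 0.000432 from DESeq2 and 0.0621 from edgeR). The 12 genes induced through IRF3 or interferon, downstream of TBK1 and IKKε, included 11 that could be tested, and *Ifnb1* itself had too few counts. All 11 had a log2 fold change below 0, with a median of -0.41, and 8 of the 11 had an unadjusted p under 0.05 in edgeR. With edgeR 3 were called and with DESeq2 5, which were these 3 with *Rsad2* and *Cmpk2* (log2 fold changes of -0.49 and -0.36, adjusted p = 0.000798 and 0.00621 from DESeq2 and 0.0537 and 0.0777 from edgeR), named after their values were seen. *Ifit2* fell, with means of 58.4 ± 5.61 CPM for Con and 34.8 ± 4.6 for Van (log2 fold change -0.75, adjusted p = 0.02 from edgeR), *Ifit3* had 58.3 ± 5.03 and 38.1 ± 3.61 CPM (log2 fold change -0.62, adjusted p = 0.0223 from edgeR) and *Mx1* had 94.7 ± 5.37 and 71.2 ± 2.91 CPM (log2 fold change -0.41, adjusted p = 0.0259 from edgeR). These 3 genes encode antiviral effectors. With 1 library left out, the adjusted p from edgeR reached 0.102, 0.108 and 0.126, respectively. The 3 calls were all lost without Con replicate 3, Van replicate 2 or Van replicate 3. They were also all lost with limma, and with the replicate block only *Ifit2* of the 3 was called.

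**Figure D5:**
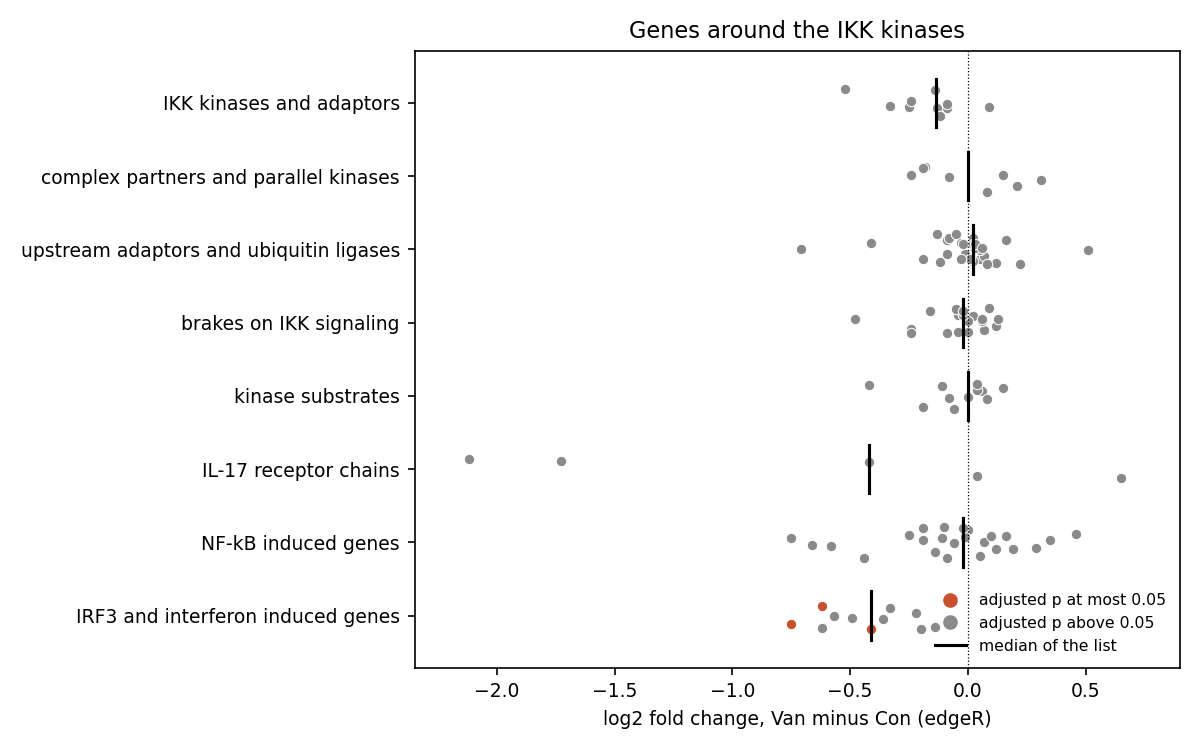
The log2 fold change of each tested gene, Van minus Con, from edgeR (points) in the 10 genes and 7 related lists, with the median of each list (black lines) and genes at an adjusted p of at most 0.05 in orange. The points are spread vertically at random. The 11 interferon-induced genes all lie below 0, and 3 of them are the genes called.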

How the data were processed

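The series holds RNA-seq of 6 monocyte libraries, 3 per group. The authors aligned reads with HISAT2 2.2.1 to GRCm38, converted files with SAMtools 1.9 and made FPKM values with StringTie 2.1.3 and Ballgown. The deposited expected counts (estimated counts) were made by the authors from these values with tximport and are not scaled to library size, so they are back-calculated from coverage and are not numbers of sequenced fragments. The annotation release and strand setting are not given in the sources used here. Levels of different genes were compared in FPKM. The paper names another deposit for its data, so its methods were linked to these libraries by treatment.

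The counts were rounded and tested on all genes with edgeR 4.0.16 in R 4.3.3 (TMM, expression filter at a minimum count of 10, quasi-likelihood test, group as the only term), with Benjamini-Hochberg adjustment and a threshold of 0.05. Intervals are 95% intervals of that fit. Alternatives used DESeq2 1.42.0, limma 3.58.1 (quantile normalization, FPKM of at least 1 in 3 libraries, pseudocount 1 or 0.1, log2 scale), other scalings and filters, a replicate block and each library left out. On the fragment scale, the estimated counts were scaled down before rounding, as a guess at numbers of fragments. The edgeR fit, DESeq2 without the expression filter and limma with pseudocount 1 were also run on simulated counts in which 200 genes had known changes. Those changes were larger than the differences of the 10 genes, and the other alternatives were not run on simulated counts. Positions and exon overlaps are from GENCODE M21, and a near-identical copy is another gene whose transcript matched over 200 bases or more with an identity of 95% or more.

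The members, gene lists, tests and alternatives were chosen with earlier results of these data known. All 10 members are named, and of each related list every gene called by edgeR or, where none was, the gene with the smallest p. Some genes outside this rule, such as those called by DESeq2 alone, are marked as chosen after their values were seen. Others, such as *Il17ra*, *G6pdx* and the monocyte markers named singly, carry no such mark. GEO's labels give the replicate numbers, and P-values measure the spread between these libraries, which may be partly technical. The B cell markers are given without 1 gene of the list, which is not reported here.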

Additional observations from a re-analysis of the deposited data

How the results depend on the processing

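The number of the 10 genes called was 0 in edgeR under every other scaling, filter and count scale, with each library left out, with limma and with the replicate block, 2 with DESeq2 and 3 with DESeq2 on the filtered genes. DESeq2 called *Ikbkg* (-0.25) and *Tifa* (-0.24) in both runs and *Traf3ip2* (-0.52) in the latter. All 10 genes kept their direction in all 18 alternatives. Of the related genes, 14 were called with DESeq2 and 16 on the filtered genes, 7 without a filter on low counts, 7 with at least 10 counts in every library, 6 on the fragment scale, 0 in each of the 3 limma fits and 0 to 3 with a library left out (0 without Con replicate 3, Van replicate 2 or Van replicate 3, and 1 without Con replicate 2). The share of all identifiers called moved as well, from 2.00% to 7.34% and 7.76% with DESeq2, 1.51% without a filter, 2.70% with at least 10 counts, 2.66% on the fragment scale, 0.0992% to 0.400% with limma and 0.125% to 0.813% with a library left out, so the counts of 0 stand beside low shares overall. The cause was not tested. The log2 difference of *Tbk1* to *Tank* lay between -0.02 (without Van replicate 3) and 0.09 with a library left out. Libraries of the same number did not deviate together (correlations of 0.03, 0 and -0.07), so the numbers are not taken as pairs, and *Tifa* had an adjusted p of 0.162 with the replicate block. With that block 110 identifiers were called in place of 322, and 2 of the related genes in place of 3. These were *Ifit2* (adjusted p = 0.0418 from edgeR) and *Vcam1* (0.0383), while *Ifit3* (0.0628) and *Mx1* (0.0529) were not called. *Vcam1*, an NF-κB induced gene, was not called by edgeR with the expression filter and no block. It was called by edgeR without a filter on low counts (0.0372) and by DESeq2.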
